A study of Mus musculus with 8 samples.

Results

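The 10 genes described here encode the cytotoxic granule proteins Gzma, Gzmb, Gzmk, Prf1 and Nkg7, the chemokines Ccl5 and Ccl4, the cytokine Ifng and the T-box transcription factors Tbx21 and Eomes. They were chosen by gene symbol from the deposited read counts, and all 10 were found among its 38406 rows. They were read in regulatory T cells (Tregs, CD4 T cells that depend on Foxp3 and dampen immunity) of 4 groups of 2 libraries: muscle and spleen Tregs of aged mice, older than 6 months, and muscle and spleen Tregs of young mice, 2 months old. All mice were male C57BL/6 with no transgene named. In all of them, muscles of the hind limb had been injured with cardiotoxin, a snake venom toxin that kills muscle fibres, at 0.9 µg per muscle. The cells were taken 4 days later, so no group is uninjured, and each library was made from 1500 sorted Tregs. The labels do not say whether the libraries of a group came from separate animals, so p-values measure the spread between these libraries, which may be technical.

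Cytotoxic T cells and natural killer (NK) cells kill by releasing granules. Perforin, the product of Prf1, forms pores in the target membrane, and granzymes are serine proteases that enter through them. CCL5 and CCL4 attract leukocytes, interferon gamma activates macrophages and antigen presentation, and T-bet (the product of Tbx21) and Eomes drive the type 1 programme to which all of these genes belong. Tregs can take up parts of this programme: activated Tregs of mice make granzyme B, and T-bet marks Tregs that act at sites of type 1 inflammation.

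The libraries held 1969982 to 4008622 counts. Levels are given as CPM, the read count scaled to a common library size after TMM normalisation, so that 1 count was worth 0.245 to 0.5 CPM. CPM is not set per length of transcript, so levels were compared between groups and not between genes. All 8 Treg markers on the list (Foxp3, Il2ra, Ctla4, Ikzf2, Tnfrsf18, Cd3e, Cd3d and Cd4) were read in every library, and Foxp3 had 15.4 to 41.5 CPM. One library stood apart: young muscle replicate 1 had 871 CPM summed over 18 myeloid markers, against 232 to 417 CPM in the other 7 libraries, and 400.3 CPM over 10 muscle and stroma markers, against 11.3 to 72.7 CPM. Of 14 tested myeloid markers 2 fell with age in muscle and 0 rose (edgeR), against 0.88% and 1.14% of all genes. These were Fcer1g and Tyrobp, by log2 fold changes of -5.75 ± 1.1 and -4.86 ± 0.96. Like Lyz2 and Mpeg1, they were higher in both young muscle libraries than in either aged one. In young mice 6 of the 14 were higher in muscle than in spleen and 0 lower, against 11.4% and 10.9% of all genes. In bulk RNA, fewer cells of a type and less RNA per cell cannot be told apart.

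Of the 10 genes, 9 passed the filter on low counts and were tested. Gzma did not, with 10 reads in all 8 libraries. Among the 9, Gzmk (69 reads), Eomes (70), Ccl4 (95) and Ifng (110) also had few reads over the 8 libraries, and 50-base stretches of the Ifng transcript were shared with the annotated locus Gm49751 for 13.5% of its length. No 50-base stretch of Gzma, Gzmb, Gzmk, Prf1, Nkg7, Ccl5, Ccl4 or Tbx21 occurred in a transcript of another gene, and 0.285% of those of Eomes did. Gzmk overlaps Esm1 and Eomes the antisense gene Gm33460 in the annotation, and the strand setting of the counts is not known here.

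**Figure D1:**
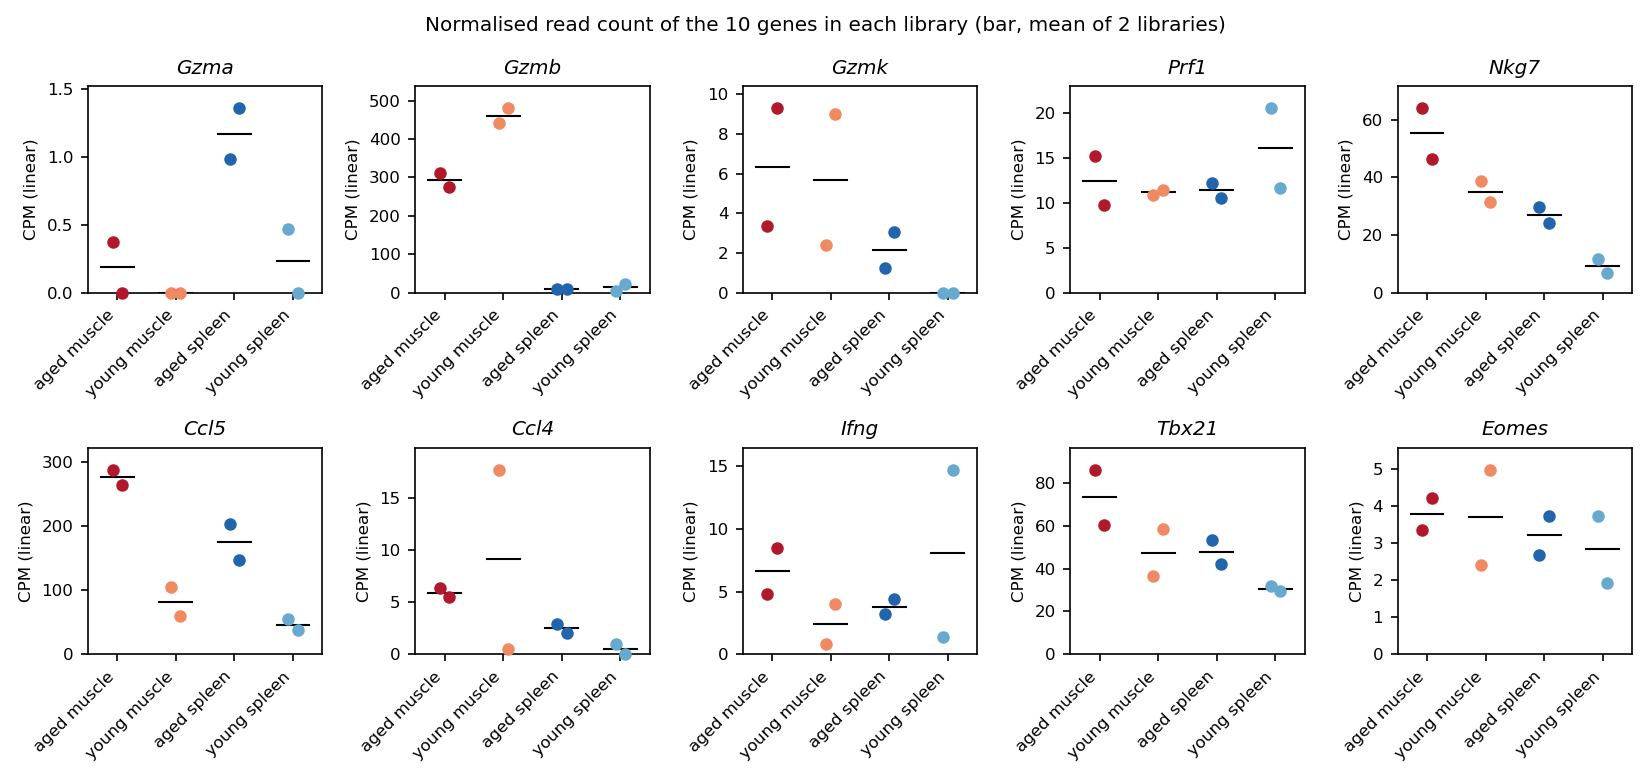
Normalised read count in CPM on a linear axis for each of the 10 genes, with a point per library, a bar at the mean of 2 libraries and an axis of its own per gene. Gzmb lay at 274 to 481 CPM in the 4 muscle libraries and at 5.14 to 23.2 CPM in the 4 spleen libraries, while Ccl5 was highest in aged muscle and lowest in young spleen.

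The granzymes and their partners are shown with the promoter windows of 4 of them, since these genes were called higher in muscle than in spleen Tregs at both ages (Gzmb, Nkg7) or in young mice alone (Gzmk), or showed no call in any comparison (Prf1). The windows come from RefSeq on GRCm38.p6 and run from 250 bases before to 50 bases after a transcription start, 5′ to 3′ on the gene's strand. That of Gzmb lies at chr14:56262285-56262584 on the minus strand, that of Nkg7 at chr7:43436888-43437187 on the plus strand, that of Gzmk at chr13:113180916-113181215 on the minus strand and that of Prf1 at chr10:61297586-61297885 on the plus strand. Capitals mark the letters GTGTGA or, on the other strand, TCACAC, the core of the sequence that T-box factors bind.

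Gzmb: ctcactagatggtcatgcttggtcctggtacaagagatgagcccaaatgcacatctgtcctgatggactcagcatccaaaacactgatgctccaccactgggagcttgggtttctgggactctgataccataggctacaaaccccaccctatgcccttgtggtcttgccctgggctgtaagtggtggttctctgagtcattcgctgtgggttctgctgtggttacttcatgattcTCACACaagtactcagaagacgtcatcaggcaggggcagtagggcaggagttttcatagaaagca

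Nkg7: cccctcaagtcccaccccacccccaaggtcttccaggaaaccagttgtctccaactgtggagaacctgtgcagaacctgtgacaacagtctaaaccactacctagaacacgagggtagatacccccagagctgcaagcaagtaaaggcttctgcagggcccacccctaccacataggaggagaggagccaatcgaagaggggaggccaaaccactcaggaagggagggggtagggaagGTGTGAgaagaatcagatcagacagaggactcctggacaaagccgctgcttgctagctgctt

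Gzmk: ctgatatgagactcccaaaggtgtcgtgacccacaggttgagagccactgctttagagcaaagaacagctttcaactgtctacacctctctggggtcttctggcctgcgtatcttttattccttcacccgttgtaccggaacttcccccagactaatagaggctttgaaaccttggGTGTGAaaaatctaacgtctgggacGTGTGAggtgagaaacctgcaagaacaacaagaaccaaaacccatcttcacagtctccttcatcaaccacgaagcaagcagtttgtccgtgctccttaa

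Prf1: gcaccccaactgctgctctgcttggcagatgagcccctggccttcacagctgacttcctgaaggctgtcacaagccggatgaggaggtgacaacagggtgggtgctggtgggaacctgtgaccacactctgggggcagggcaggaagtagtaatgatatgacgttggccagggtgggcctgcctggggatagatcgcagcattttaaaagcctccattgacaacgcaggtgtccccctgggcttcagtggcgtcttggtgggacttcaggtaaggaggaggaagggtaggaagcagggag

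RefSeq windows were matched for 8 of the 10 genes, all but Ccl5 and Ccl4. The T-box letters were found in 3 of these 8, starting at position -15 from the start base in Gzmb, -12 in Nkg7, and -74 and -49 in Gzmk. Of all 32851 windows of this length, 14.5% held them. An interferon-stimulated element was matched in 2 of the 8 (Gzma and Eomes) and in 3.44% of all windows, and a loose NF-kB pattern in 5 of the 8 and in 50.8% of all windows. Matches of letters describe the windows and do not show binding.

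Gzmb, which encodes the granzyme that cleaves caspase targets, was the member with the largest tissue difference that did not rest on a group at 0. In muscle Tregs its reads were 312 and 274 CPM in aged mice and 442 and 481 CPM in young mice. In spleen Tregs they were 10.3 and 9.16 CPM in aged mice and 5.14 and 23.2 CPM in young mice. Every muscle library lay above every spleen library, and the ratio between the 2 libraries was larger in young spleen than in any other group. Muscle exceeded spleen by a log2 fold change of 4.90 ± 0.43 in aged mice (SE; edgeR adjusted p = 0.000127), or 29.8-fold, and by 4.97 ± 0.43 in young mice (edgeR adjusted p = 7.02e-05), or 31.3-fold. Both calls held under every alternative run, at 4.82 to 4.99 in aged and 4.31 to 6.47 in young mice.

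With age Gzmb did not pass in either tissue. Its log2 fold change was -0.65 ± 0.33 in muscle (95% interval -1.41 to 0.10; edgeR adjusted p = 0.391), although the aged libraries, at 274 and 312 CPM, lay below the young ones, at 442 and 481 CPM. With no filter on low counts the muscle value was -0.67 and passed (edgeR adjusted p = 0.0312). In spleen it was -0.59 ± 0.50 (edgeR adjusted p = 0.636) and 0.92 without young spleen replicate 2, the higher library of its pair.

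Gzmk, a tryptase-like granzyme, was read at low levels. Muscle Tregs had 9 and 22 reads in aged mice (3.35 and 9.30 CPM) and 6 and 18 in young mice (2.41 and 8.99 CPM). Spleen Tregs had 5 and 9 reads in aged mice (1.23 and 3.05 CPM) and 0 in both libraries of young mice, which allows up to 0.636 CPM over the group. The tissue difference in young mice passed (edgeR adjusted p = 0.0207). Against a floor of 3 counts over the 2 young spleen libraries, Gzmk was 8.42-fold higher in young muscle. That value leaves out the counting error of the muscle reads. Its call ended without young spleen replicate 1, young spleen replicate 2 or young muscle replicate 2 (edgeR adjusted p = 0.104, 0.109 and 0.0942). In aged mice muscle over spleen was 1.56 ± 1.1 on the log2 scale (edgeR adjusted p = 0.338). With age in spleen Gzmk was 3.14-fold higher against the same floor and did not pass (edgeR adjusted p = 0.173), and in muscle the 2 age groups overlapped.

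Gzma, the other tryptase-like granzyme and the neighbour of Gzmk on chromosome 13 (113093825 to 113100981 against 113171608 to 113225908, GENCODE M21 on GRCm38), was close to the limit of detection. Aged muscle had 1 and 0 reads, young muscle 0 and 0, aged spleen 4 and 4, and young spleen 1 and 0. A count of 0 over the 2 young muscle libraries allows up to 0.669 CPM. Aged over young spleen gave a ratio of 5.38, with a 95% counting interval of 0.721 to 239 from 8 and 1 reads.

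Prf1 showed no call in any of the 5 comparisons. Its levels were 15.3 and 9.73 CPM in aged muscle, 10.9 and 11.5 CPM in young muscle, 12.3 and 10.5 CPM in aged spleen, and 20.6 and 11.6 CPM in young spleen. Apart from young spleen replicate 1 every library lay between 9.73 and 15.3 CPM, in muscle as in spleen. The difference of muscle from spleen was 0.13 ± 0.50 on the log2 scale in aged mice (95% interval -0.93 to 1.2; edgeR adjusted p = 0.871) and -0.52 ± 0.51 in young mice (-1.60 to 0.57; edgeR adjusted p = 0.486). The age difference was 0.17 ± 0.51 in muscle and -0.49 ± 0.50 in spleen (edgeR adjusted p = 0.909 and 0.694).

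Nkg7, which encodes a granule membrane protein needed for granule release, was higher in muscle than in spleen at both ages. It had 64.1 and 46.5 CPM in aged muscle, 38.6 and 31.5 CPM in young muscle, 29.7 and 24.1 CPM in aged spleen, and 11.7 and 6.97 CPM in young spleen. No 2 groups overlapped, and the groups fell in that order. Muscle over spleen was 1.04 ± 0.32 on the log2 scale in aged mice (edgeR adjusted p = 0.0335) and 1.92 ± 0.36 in young mice (edgeR adjusted p = 0.00148). With age Nkg7 rose in spleen by 1.54 ± 0.36 (edgeR adjusted p = 0.0223), or 2.91-fold, and in muscle the difference of 0.66 ± 0.32 did not pass (95% interval -0.02 to 1.33; edgeR adjusted p = 0.343). The difference between these age effects was -0.89 ± 0.48 and did not pass (edgeR adjusted p = 0.474).

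The tissue call of Nkg7 in young mice held under every alternative run. That in aged mice ended without aged muscle replicate 1 (0.81) or 2 (1.25) and without aged spleen replicate 1 (1.2) or 2 (0.90). The age call in spleen ended without aged spleen replicate 1 (1.38) or 2 (1.68) and without young spleen replicate 1 (1.94) or 2 (1.2).

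Ccl5 (chromosome 11, 83525778 to 83530518), which encodes the chemokine RANTES, was the member that rose with age in both tissues. Muscle Tregs had 289 and 265 CPM in aged mice and 105 and 59.4 CPM in young mice. Spleen Tregs had 203 and 148 CPM in aged mice and 55.1 and 37.6 CPM in young mice. No 2 groups overlapped: aged muscle was highest, then aged spleen, young muscle and young spleen, though 59.4 CPM in young muscle replicate 2 was close to 55.1 CPM in young spleen replicate 1. Ccl5 rose with age by 1.74 ± 0.26 on the log2 scale in muscle (edgeR adjusted p = 0.00369), or 3.34-fold, and by 1.93 ± 0.27 in spleen (edgeR adjusted p = 0.0014), or 3.81-fold. The difference between the age effects was -0.19 ± 0.37, with a 95% interval of -1.0 to 0.62 (edgeR adjusted p = 0.91).

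The age call of Ccl5 in spleen held under every alternative, and that in muscle ended only with a fit of the 2 muscle groups alone (edgeR adjusted p = 0.066), where the value was 1.75. Muscle over spleen was 0.65 ± 0.25 in aged mice, which did not pass (edgeR adjusted p = 0.0846), and 0.84 ± 0.28 in young mice, which did (edgeR adjusted p = 0.0473). The tissue call in young mice ended when any library other than young muscle replicate 2 was left out or when muscle and spleen of young mice were fitted alone, and the value was 0.37 without young muscle replicate 1. The tissue difference in aged mice passed by DESeq2 (0.71), with library-size scaling (0.72), with no filter (0.60), with those 2 groups alone (0.64) and without either young muscle library (0.65 for each).

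Ccl4 (chromosome 11, 83662584 to 83664683), which encodes the chemokine MIP-1 beta from the same chromosomal cluster, was a low-count gene that turned on a single library. It had 17 and 13 reads in aged muscle (6.33 and 5.50 CPM), 44 and 1 in young muscle (17.7 and 0.5 CPM), 12 and 6 in aged spleen (2.94 and 2.04 CPM) and 2 and 0 in young spleen (0.935 and 0 CPM). The 44 reads were in young muscle replicate 1, the library with the high myeloid and stroma markers, where Lyz2, a macrophage gene, had 288 reads against 24 in replicate 2. Ccl3, the chemokine gene that neighbours Ccl4 on chromosome 11, had 19 and 0 reads in the same 2 libraries. The part of myeloid and stromal cells in the Ccl4 reads was not tested. Muscle over spleen in young mice was 4.26 ± 1.5 and did not pass (edgeR adjusted p = 0.0542), although it did by DESeq2 (4.41), with no filter (4.25) and without young muscle replicate 2 (5.21). Leaving out 1 library moved the value from 0.18, without young muscle replicate 1, to 7.66, without young spleen replicate 1, and neither of these passed.

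With age Ccl4 did not pass in either tissue. In muscle the log2 fold change was -0.63 ± 1.1 (edgeR adjusted p = 0.836), and without young muscle replicate 1 it was 3.45 (edgeR adjusted p = 0.54). In spleen 18 against 2 reads gave a ratio of 6.05 of aged over young mice, with a 95% counting interval of 1.45 to 53.7 that leaves out the spread between libraries, and the test did not pass (edgeR adjusted p = 0.475).

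**Figure D2:**
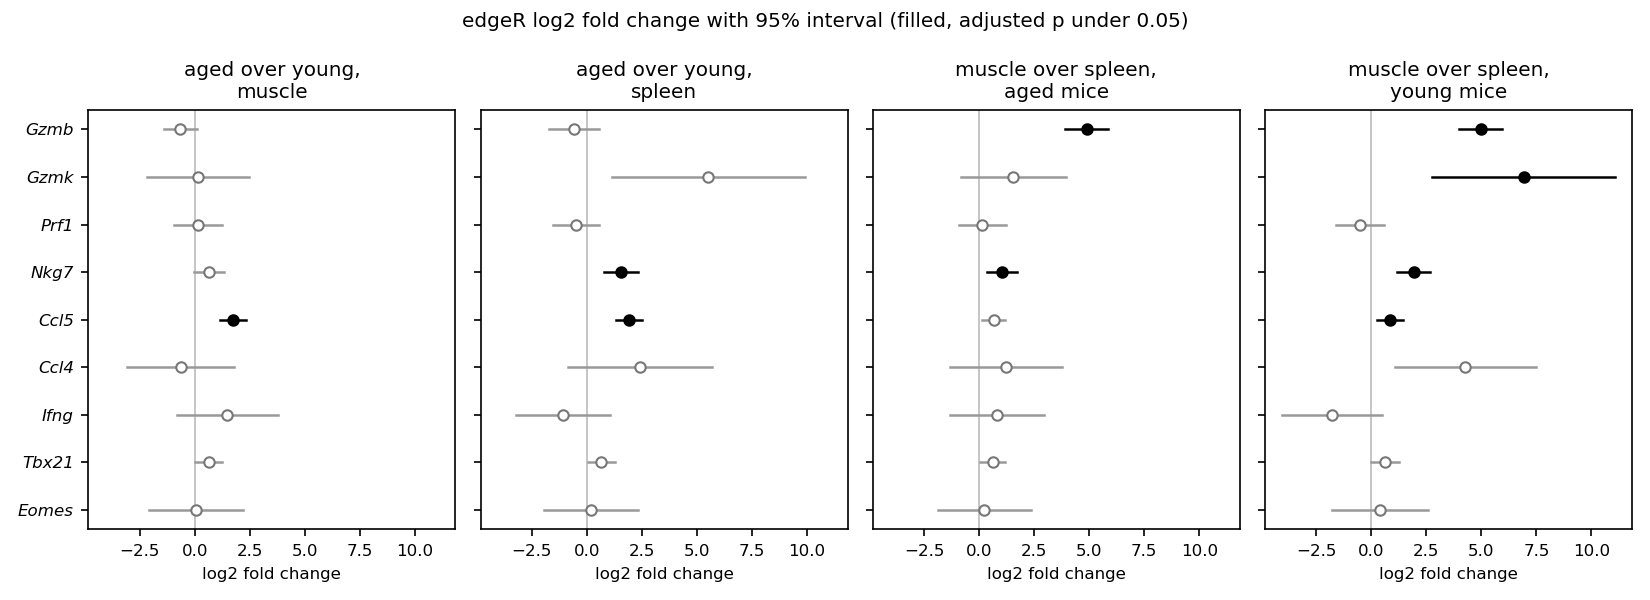
Log2 fold change of the 9 tested genes with the 95% interval of the edgeR fit in 4 comparisons, with filled points for an adjusted p under 0.05. Ccl5 is called for age at 1.74 in muscle and 1.93 in spleen, while Gzmb is called for tissue at 4.90 in aged and 4.97 in young mice. The wide bars belong to genes of few reads, and that of Gzmk in the panels with young spleen depends on a group at 0.

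Ifng, which encodes interferon gamma, had 13 and 20 reads in aged muscle (4.84 and 8.46 CPM) and 2 and 8 in young muscle (0.805 and 4.00 CPM). It had 13 and 13 reads in aged spleen (3.19 and 4.41 CPM) and 3 and 38 in young spleen (1.40 and 14.7 CPM). The muscle groups did not overlap, and the young spleen libraries lay on either side of all others except young muscle replicate 1. No comparison passed for Ifng. The age difference was 1.49 ± 1.1 on the log2 scale in muscle (95% interval -0.81 to 3.78; edgeR adjusted p = 0.542) and -1.10 ± 1.0 in spleen (-3.23 to 1.03; edgeR adjusted p = 0.647). That in spleen turned to 1.40 without young spleen replicate 2. At these counts the intervals held a rise of several fold with age in muscle and a fall of several fold in spleen.

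Tbx21 (chromosome 11, 97098071 to 97115331), the gene of T-bet, had 86.4 and 60.5 CPM in aged muscle, 36.6 and 58.4 CPM in young muscle, 53.7 and 42.4 CPM in aged spleen, and 31.8 and 29.4 CPM in young spleen. The aged libraries lay above the young ones within each tissue, and young muscle spanned the values of aged spleen. The differences were alike in size and none passed. They were 0.64 ± 0.28 for age in muscle (95% interval 0.04 to 1.24; edgeR adjusted p = 0.293), 0.65 ± 0.29 for age in spleen (0.04 to 1.27; 0.262), 0.61 ± 0.28 for muscle over spleen in aged mice (0.02 to 1.2; 0.132) and 0.63 ± 0.29 for muscle over spleen in young mice (0.0024 to 1.25; 0.136). Without young muscle replicate 1 the last was 0.93 and passed (edgeR adjusted p = 0.0373). The age effects in muscle and spleen differed by -0.02 ± 0.40 (95% interval -0.86 to 0.83).

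Eomes, the other T-box factor of this group, had 5 to 11 reads in every library. Its levels were 3.35 and 4.23 CPM in aged muscle, 2.41 and 5.0 CPM in young muscle, 2.70 and 3.73 CPM in aged spleen, and 3.74 and 1.94 CPM in young spleen. All 4 groups overlapped, and no comparison passed. The log2 fold changes were 0.04 ± 1.0 for age in muscle and 0.24 ± 0.99 for muscle over spleen in aged mice (edgeR adjusted p = 0.99 and 0.883). A 2-fold change lay inside each of its intervals.

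Counted over the tested members, 1 of 9 rose with age in muscle (Ccl5) and 2 of 9 in spleen (Ccl5 and Nkg7), against 1.14% and 2.08% of all 14772 tested genes. None of the 9 fell with age by edgeR or DESeq2, and none was lower at an unadjusted p of 0.05, while 2 of 9 in muscle and 4 of 9 in spleen were higher at it. At that unadjusted p 7.6% of all genes were higher and 7.69% lower with age in muscle, and 9.12% were higher and 7.53% lower in spleen. Calls of either direction made up 2.02% of all genes for age in muscle (0.88% lower) and 4.24% for age in spleen (2.17% lower). Muscle exceeded spleen for 2 of 9 in aged mice (Gzmb and Nkg7) and 4 of 9 in young mice (Gzmb, Gzmk, Nkg7 and Ccl5), against 9.57% and 11.4% of all genes. No member was lower in muscle by either tool, against 9.27% of all genes in aged and 10.9% in young mice, where calls of either direction made up 18.8% and 22.3%. For the difference of the age effects 0 of 9 passed by edgeR or DESeq2, against 2.52% of all genes called by edgeR (1.35% higher and 1.17% lower). At an unadjusted p of 0.05, 1 of 9 was lower (Gzmk) and 0 were higher, against 7.1% and 5.9% of all genes. Few reads lay behind Gzma, Gzmk, Ccl4, Ifng and Eomes.

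The median log2 fold change of the 9 members was 0.17 for age in muscle and 0.65 for age in spleen, against 0.03 and 0.05 over all genes. For muscle over spleen it was 0.80 in aged mice and 0.84 in young mice, against 0.03 and 0.07. Setting Gzmk to its counting bound where young spleen was at 0 left these medians as they were. Groups did not overlap, with aged above young, for 4 of 9 members in muscle and 5 of 9 in spleen, where 21.2% and 28.8% of all genes showed this. Muscle lay wholly above spleen for 7 of 9 members in aged mice and 5 of 9 in young mice, against 33% and 31.7% of all genes. The opposite order held for 1 of 9 with age in muscle (Gzmb), 0 with age in spleen, 0 for tissue in aged mice and 1 for tissue in young mice (Prf1), against 20.3%, 24%, 32.4% and 30% of all genes.

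Of 20 other cytotoxic granule genes 16 were tested, and with age in muscle 0 passed by edgeR (1 higher by DESeq2; 3 higher and 1 lower at an unadjusted p under 0.05). With age in spleen 3 rose, Gzmf, Cst7 and Stx11, and 0 fell (0 with DESeq2, and 1 at an unadjusted p of 0.05). The call of Stx11, which encodes a syntaxin of granule fusion, ended when young spleen replicate 1 or an aged spleen library was left out (0.96 to 1.21, against 1.18). Muscle against spleen gave 2 higher and 3 lower in aged mice, and 3 higher and 3 lower in young mice. Srgn, which encodes the proteoglycan that packs granzymes, was higher in muscle by 0.50 ± 0.15 in aged mice and 0.78 ± 0.15 in young mice, and the call in aged mice ended under 7 of its alternatives.

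Cst7, which encodes cystatin F, an inhibitor of the protease that activates granzymes, was higher in spleen than in muscle. It had 101 and 87.5 CPM in aged muscle, 64.8 and 51.0 CPM in young muscle, 403 and 449 CPM in aged spleen, and 145 and 156 CPM in young spleen. Every spleen library lay above every muscle library. Muscle over spleen was -2.17 ± 0.18 in aged mice (edgeR adjusted p = 1.41e-06) and -1.37 ± 0.18 in young mice (edgeR adjusted p = 8.31e-05). With age Cst7 rose in spleen by 1.5 ± 0.17 (edgeR adjusted p = 0.00012), and in muscle the difference of 0.70 ± 0.18 did not pass (edgeR adjusted p = 0.0662). Of 4 tested granzyme inhibitor genes, Serpinb1a was higher in muscle, by 2.61 ± 0.41 in aged and 2.82 ± 0.42 in young mice, and none passed for age by edgeR or DESeq2, with 0 in muscle and 1 in spleen at an unadjusted p under 0.05.

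Gzmf, a granzyme of the chromosome 14 cluster that holds Gzmb, was read almost only in aged spleen. Aged spleen had 102 and 98 reads (25.0 and 33.2 CPM) and young spleen 0 and 0, while aged muscle had 4 and 1 and young muscle 0 and 1. Against a floor of 3 counts over the 2 young libraries, it was 44.8-fold higher in aged than in young spleen (edgeR adjusted p = 0.000907). In aged mice muscle over spleen was -4.83 ± 0.85 (edgeR adjusted p = 0.00164), a call that ended without aged spleen replicate 2. Gzmf (56205263 to 56211417) overlaps the annotated antisense gene Gm4022, and 7.36% of its 50-base stretches also occur in Gzmd or Gzmg transcripts, so its reads are uncertain. Looked up after these values were seen, Gzmd, Gzme and Gzmg had 0 reads in every library. Gzmc (56231441 to 56234656), also picked after its values were seen, had 22 and 16 reads in aged muscle, 12 and 17 in young muscle, 1 and 3 in aged spleen and 5 and 2 in young spleen, so the muscle libraries were the higher ones, as for Gzmb.

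Ccr3 and Ccr1, which encode receptors for CCL5, were higher in muscle than in spleen Tregs at both ages. Ccr3 had 90.9 and 75.3 CPM in aged muscle, 196 and 198 CPM in young muscle, 4.66 and 4.41 CPM in aged spleen, and 1.87 and 2.32 CPM in young spleen. Every muscle library lay above every spleen library. Muscle over spleen was 4.18 ± 0.26 for Ccr3 in aged mice and 6.51 ± 0.30 in young mice. For Ccr1 the same differences were 2.75 ± 0.72 and 5.21 ± 0.86, the value of Ccr1 in aged mice losing its call without aged muscle replicate 1 or either aged spleen library. Of the 14 tested myeloid markers 6 were also higher in muscle and 0 lower in young mice, and 1 higher and 1 lower in aged mice. The part of myeloid cells in the Ccr1 reads was not tested.

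With age in muscle Ccr3 fell by 1.24 ± 0.20 (edgeR adjusted p = 0.00344), and Ccr1 had a difference of -0.95 ± 0.62 that did not pass. In spleen the values were 1.09 ± 0.41 for Ccr3 and 1.51 ± 0.97 for Ccr1, neither past the threshold. Of the 9 tested genes in the list of these receptors and related chemokines, 2 fell with age in muscle (Ccr3 and the heparan sulfate proteoglycan gene Sdc4) and 0 rose, by DESeq2 also. Both calls ended with the 2 muscle groups fitted alone, and that of Sdc4 without aged muscle replicate 2. None passed for age in spleen by edgeR or DESeq2, with 4 higher at an unadjusted p under 0.05.

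**Figure D3:**
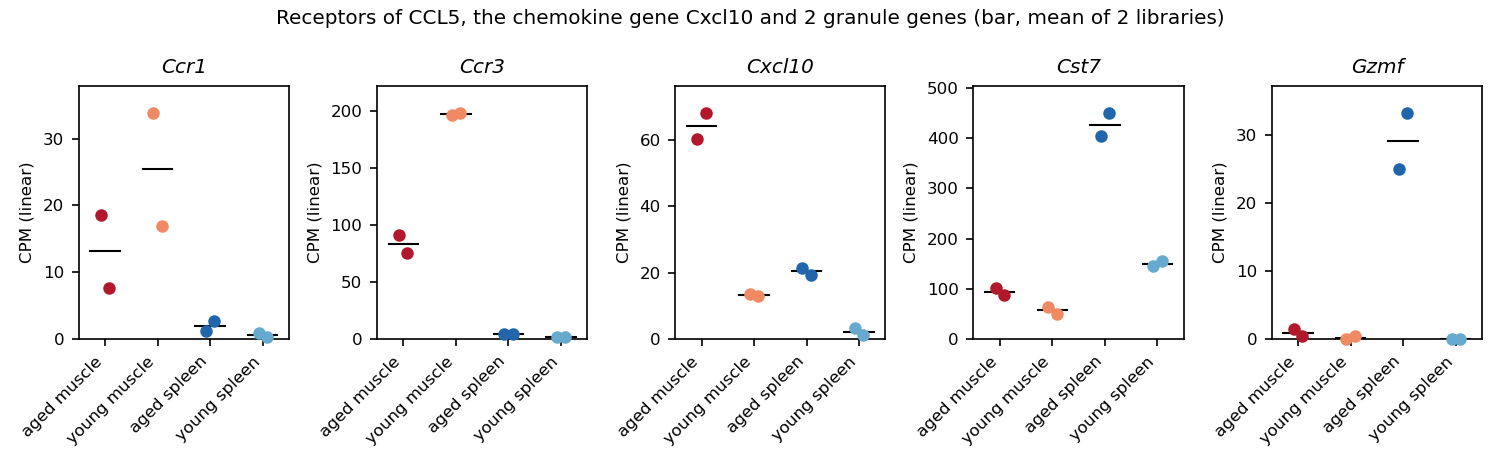
CPM on a linear axis in each library, with a bar at the mean of 2, for the CCL5 receptor genes Ccr1 and Ccr3, the chemokine gene Cxcl10 and the granule genes Cst7 and Gzmf. The receptors are high in muscle, Cst7 is high in spleen with 403 and 449 CPM in aged mice, and Gzmf has 25.0 and 33.2 CPM in aged spleen and at most 1.49 CPM elsewhere.

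Of 19 tested genes of the wider type 1 programme 8 rose with age in spleen and 0 fell (0 with DESeq2, and 1 at an unadjusted p of 0.05). In muscle 2 rose and 1 fell. Bhlhe40, a transcription factor that T cells need to make interferon gamma, rose in both, by 2.35 ± 0.27 in muscle and 1.94 ± 0.25 in spleen. Il18r1, a subunit of the IL-18 receptor, rose by 2.04 ± 0.23 in spleen. In muscle over spleen 6 of the 19 were higher and 2 lower in aged mice, and 9 were higher and 3 lower in young mice.

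Among 13 tested genes of the interferon gamma receptor and its targets, 5 rose and 0 fell with age in muscle (0 fell with DESeq2, and 1 at an unadjusted p of 0.05). In spleen 2 rose and 0 fell (1 with DESeq2, and 2 at an unadjusted p of 0.05). Cxcl10, an interferon-induced chemokine gene, rose in both tissues. It had 60.3 and 68.1 CPM in aged muscle and 13.7 and 13.0 CPM in young muscle, and 21.6 and 19.3 CPM in aged spleen and 3.27 and 1.16 CPM in young spleen. The rise was 2.26 ± 0.37 in muscle (edgeR adjusted p = 0.0036) and 3.23 ± 0.46 in spleen (edgeR adjusted p = 0.000775). The GTPase gene Iigp1 rose by 2.46 ± 0.29 in muscle and by 0.98 ± 0.25 in spleen, and the call in spleen ended without any 1 of the spleen libraries. Between tissues 4 of the 13 were higher and 1 lower in muscle in aged mice, and 3 were higher and 6 lower in young mice (3 and 5 with DESeq2). Iigp1 was lower in young muscle, by a log2 fold change of -2.00 ± 0.30, while Ifngr1, the ligand-binding receptor chain, was higher in muscle by 1.54 ± 0.15 in aged mice and 1.38 ± 0.15 in young mice.

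Markers of the other cells that carry these genes were set beside them. The CD8 markers Cd8a and Cd8b1 summed to 10.4 and 10.6 CPM in aged muscle, 11.7 and 7.49 CPM in young muscle, 10.3 and 8.48 CPM in aged spleen, and 16.8 and 8.91 CPM in young spleen. The 12 NK cell and ILC1 markers summed to 9.25 to 28 CPM in the muscle libraries and 46.9 to 81.2 CPM in the spleen libraries, with 1 to 8 of them at 0 in a library. Ncr1, a defining NK cell receptor gene, had 0 reads in 5 of the 8 libraries and at most 11. Cd160 carried the NK cell and ILC1 sums in spleen, with 63.5 and 39.0 CPM in aged mice and 62.2 and 39.1 CPM in young mice, against 4.10 and 7.61 CPM in aged muscle and 1.21 and 8.49 CPM in young muscle. It was lower in muscle by log2 fold changes of -3.14 ± 0.59 in aged and -3.44 ± 0.62 in young mice. The other 4 tested NK cell and ILC1 markers did not pass between tissues, and their values lay in both directions at each age. Klri2, for instance, had 4.10 and 2.96 CPM in aged muscle and 3.62 and 4.00 CPM in young muscle, against 2.45 and 2.37 CPM in aged spleen and 2.34 and 1.55 CPM in young spleen. Klrb1c lay wholly lower in young muscle than in young spleen, by -3.26 ± 1.5 (edgeR adjusted p = 0.133). Xcl1 gave -2.24 ± 1.3 for muscle over spleen in aged mice and 4.83 ± 2.3 in young mice (edgeR adjusted p = 0.231 and 0.142). The CD8 sums overlapped between tissues. Mast cells also carry granzyme B, and the 8 mast cell and basophil markers summed to 74.5 and 82.5 CPM in aged muscle and 12.9 and 15.0 CPM in young muscle, against 3.92 and 4.41 CPM in aged spleen and 3.27 and 2.32 CPM in young spleen. Kit made up 67.4 and 67.2 CPM of the aged muscle sums, while the mast cell protease genes Mcpt4 and Tpsb2 were at 0 in all 8 libraries. Cpa3 and Mcpt8 of the same list lay wholly higher in aged muscle than in aged spleen, by 3.30 ± 1.6 and 2.86 ± 2.0. Neither passed (edgeR adjusted p = 0.162 and 0.321), and in young mice both overlapped between tissues. Kit, the only other tested marker of that list, did pass. It was higher in muscle by 4.63 ± 0.54 in aged and 2.25 ± 0.67 in young mice (edgeR adjusted p = 4.2e-05 and 0.0258). With age in muscle Kit rose by 3.23 ± 0.51 (edgeR adjusted p = 0.00283). The part of mast cells in the Gzmb reads was not tested. Gzmb averaged 293 CPM in aged muscle and 461 CPM in young muscle. Only 1 of the 2 CD8 markers and 5 of the 12 NK cell and ILC1 markers were tested, and none passed for age by edgeR or DESeq2. At an unadjusted p of 0.05, 1 in each tissue was higher with age. These were Klrb1c in muscle, by 4.45 ± 1.5, and Xcl1 in spleen, by 7.13 ± 2.1 (edgeR adjusted p = 0.146 and 0.0715). The young spleen libraries had 7 and 8 of the 12 markers at 0, and the aged spleen libraries 1 each. For muscle it was 4 and 5 in young mice, and 4 and 1 in aged mice. The part of CD8 T cells and NK cells in the rise of Ccl5 with age was not tested.

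**Figure D4:**
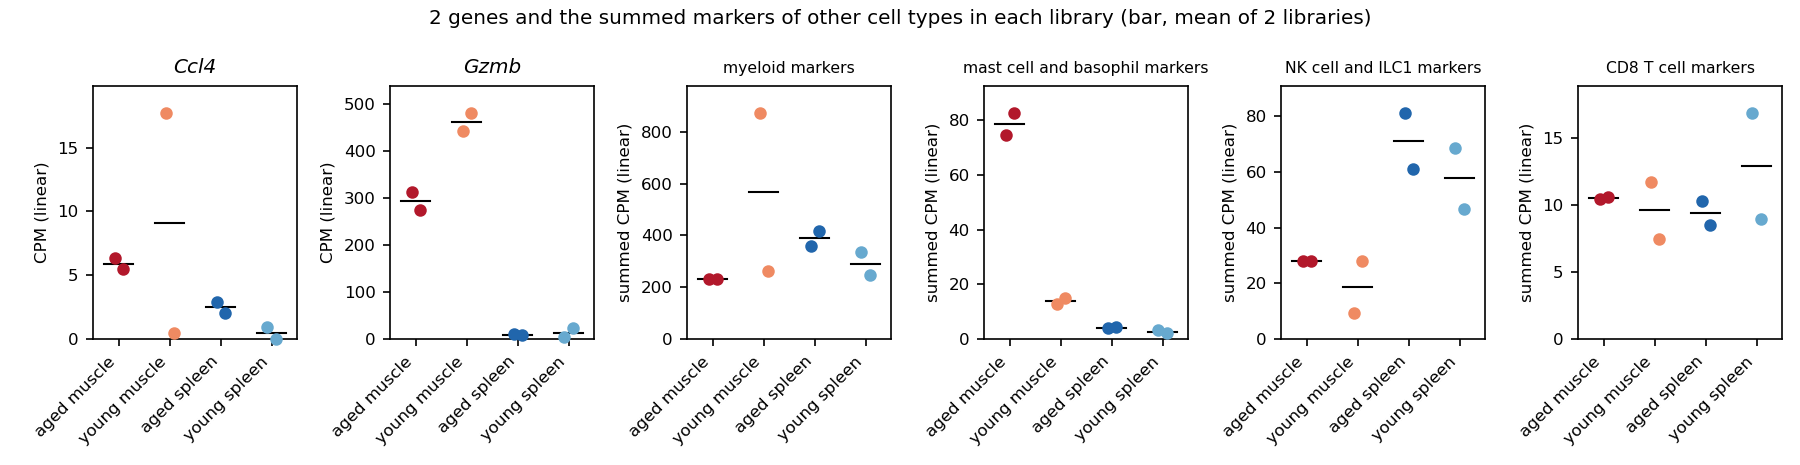
Ccl4 and Gzmb in CPM, and the summed CPM of the markers of 4 other cell types, in each library on linear axes, with a bar at the mean of 2. Ccl4 and the myeloid markers share their highest library, young muscle replicate 1, with 17.7 and 871 CPM, while the sum of the NK cell and ILC1 markers, mostly Cd160 in spleen, is lower in muscle than in spleen.

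Over the 8 libraries and 8200 genes whose mean log2 CPM reached 4, those that followed Ccl5 most closely were Slc26a2, Naip2, Entpd7, Deptor and Ncan, with Pearson's r of 0.966, 0.963, 0.951, 0.945 and 0.941. Those closest to Gzmb were Dot1l, 2010012O05Rik, Slc25a24, Myadm and Dgat1, with r of 0.994, 0.994, 0.992, 0.988 and 0.986. The 8 libraries are shared by all of these genes and fall into 4 groups, so such values describe the pattern only. Dgat1 averaged 1265 CPM in aged muscle and 1557 CPM in young muscle, against 125 CPM in aged spleen and 114 CPM in young spleen. Deptor averaged 49.7 CPM in aged muscle and 19 CPM in young muscle, and 34.4 CPM in aged spleen and 7.23 CPM in young spleen, the order seen for Ccl5.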

How the data were processed

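The authors deposited 1 table of raw read counts per gene symbol for 8 libraries, with no normalization. All its columns were used, and every row named a gene. Per the labels' protocols, RNA was amplified by in vitro transcription and then by PCR, and no molecular identifiers are described, so counts are reads and not molecules. Counting intervals and floors cover counting error only, and a fold against a floor leaves out that of the group with reads. Alignment with TopHat2 or TopHat, handling with Picard and SAMtools 0.1.19, counting with HTSeq and the build mm10 are named per the submitters' processing notes. No source used here gives the annotation or strand setting.

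Genes were kept by filterByExpr (14772), scaled by TMM and fitted in R 4.3.3 with edgeR 4.0.16, with 1 robust quasi-likelihood model over all 8 libraries and a coefficient per group (4 residual degrees of freedom, biological coefficient of variation 0.288). Tests were two-sided with Benjamini-Hochberg adjustment at 0.05 over all genes, and the steps were tested on simulated data. CPM used TMM-scaled library sizes, and SE is the log2 fold change over the root of F. Intervals are at 95%. Logged CPM, with a prior count of 2, served only the correlations. Alternatives were DESeq2 1.42.0, other scalings, no filter, fits of 2 groups, a replicate block and leaving out each library with the tested genes held. Lists name, per comparison, at most the 4 genes of smallest p, and the 5 closest genes are given for Ccl5 and Gzmb. The members and lists were chosen with earlier results of these data known. Older symbols were matched through RefSeq. Some list genes are counted in their lists and not reported here by name.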

Additional observations from a re-analysis of the deposited data

Results flagged for a closer look

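The age effects in muscle and spleen differed, by the test of the difference itself (edgeR), for 4 genes named beside the members. Ccr3 had an age effect of -1.24 in muscle and 1.09 in spleen on the log2 scale, a difference of -2.33 ± 0.45 (adjusted p = 0.00978). The difference was -1.78 ± 0.29 for Sdc4 (adjusted p = 0.00288) and -1.50 ± 0.30 for Il18r1 (adjusted p = 0.0131). For Maf, a transcription factor gene of the other helper lineages, it was -1.23 ± 0.23 (adjusted p = 0.00789), a call that ended without young spleen replicate 1 (-1.11) or an aged spleen library (-1.24 and -1.22). The call of Ccr3 ended without any 1 spleen library (-2.20 to -2.50), and that of Il18r1 without either young spleen library (-1.51 and -1.49) or aged spleen replicate 2 (-1.35). No difference of age effects passed for a member. Groups of 2 libraries cannot be searched for outlying libraries.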

How the results depend on the processing

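Of 616 values of members under alternatives, 553 kept direction and side of the threshold, 13 gained a call, 20 lost it and 30, none called, changed sign. The count of members called for age in muscle was 1, with 2 under no filter and 0 with only the groups compared. Without a library it was 1 to 2 for age in spleen, 1 to 3 for tissue in aged mice and 2 to 4 for tissue in young mice. For the difference of age effects it was 0 in all 13 alternatives. Without a library the log2 value ranged from -1.57 to 3.45 for Ccl4 with age in muscle (0.090 with a replicate block) and -6.44 to 1.05 for its difference of age effects. It ranged from -0.40 to 0.64 for Eomes with age in muscle, -0.22 to 0.71 in spleen, -0.67 to 0.46 for the difference and -0.22 to 0.91 for tissue in young mice. For Gzmb it was -1.25 to 0.92 with age in spleen and -1.58 to 0.59 for the difference, for Gzmk -0.74 to 1.37 with age in muscle, for Ccl5 -0.53 to 0.29 and for Tbx21 -0.32 to 0.35 for the difference. For Ifng it was -1.95 to 1.40 with age in spleen and -3.27 to 0.72 for tissue in young mice, and for Prf1 -0.19 to 0.45 with age in muscle and -0.21 to 0.42 for tissue in aged mice. The cause was not tested.

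Replicate numbers 1 and 2 are shared between groups by the labels, and deviations of same-numbered libraries correlated at -0.07 to 0.26. The labels do not say what the numbers mean. These correlations cannot tell whether same-numbered libraries share an animal. With a replicate block the members called were 1 and 2 for age in muscle and spleen, 3 and 5 for tissue in aged and young mice, and 0 for the difference, since Ccl5 in aged mice (0.68) and Ccl4 in young mice (3.92) then passed for tissue. Over all genes the calls ranged from 50 to 978 for age in muscle (298 as reported), 141 to 1930 for age in spleen (627), 137 to 670 for the difference (372), 870 to 3922 for tissue in aged mice (2783) and 1444 to 3845 for tissue in young mice (3290). With library-size scaling the share of higher calls was 66.4% for age in muscle and 67.4% in spleen, against 56.4% and 49.0%, and the median of all genes was 0.15 and 0.21. Depth limits Gzma, Gzmk, Ccl4, Ifng and Eomes. DESeq2 gave no adjusted p for Gzmk and Eomes with age in either tissue, nor for Ccl4 with age in muscle. A group left with 1 library was assumed to vary like the others.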

Other observations

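Genes of other helper lineages were set beside the type 1 genes. Of 13 on that list 6 were tested, and with age in muscle 0 passed by edgeR or DESeq2, with 2 lower at an unadjusted p under 0.05. In spleen 2 rose with age, Rora, a nuclear receptor of innate-like and helper 17 cells, by 0.92 ± 0.18 and Maf, a transcription factor of IL-10 producing cells, by 0.76 ± 0.16. The call of Maf ended without any 1 spleen library (0.65 to 0.89) and that of Rora without young spleen replicate 1 (0.71) or an aged spleen library (0.86 and 0.98). Muscle over spleen gave 1 higher and 2 lower in aged mice, and 3 higher and 1 lower in young mice. Rora was higher in muscle by 1.46 ± 0.17 in aged and 2.17 ± 0.18 in young mice, and Bcl6, the factor of follicular helper cells, was lower by 2.30 ± 0.22 and 2.00 ± 0.22.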
